A study of Gallus gallus with 4 samples.

Results

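Creatine phosphate and the purine nucleotide cycle keep the ATP of a contracting muscle fibre topped up, and 8 of their genes were compared between a native and a commercial chicken. The set was named by 10 gene symbols, GATM, GAMT, CKM, CKB, CKMT2, ADSSL1, ADSL, AMPD1, AMPD3 and AK1, and 8 of them matched exactly 1 row each among the 18973 rows of the expression table. CKM, the cytosolic creatine kinase of muscle, matched no row and is not analysed here. GAMT, the methyltransferase of the last step of creatine synthesis, appeared only in a row joined to a second identifier and is described apart. All 8 matched genes belonged to the 11626 rows that the authors tested, so no member was lost to a filter on low values.

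The tissue was pectoralis (breast) muscle at day 28 after hatching. One group was Isfahani, a native Iranian chicken, and the other was Ross 708, a broiler line bred for rapid growth. Each breed had 2 libraries, each made from the pooled RNA of 3 birds, which makes 6 birds a breed if the pools held different birds. Treatment and sex are not given in the labels, and nothing says whether the pools came from separate flocks. The table gives 1 FPKM value (fragments scaled by transcript length and by library size) per breed, so the values of single libraries, their spread and their depth are unknown, and no breed value carries an SD or an n.

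In muscle, creatine is phosphorylated by creatine kinases at the mitochondria and hands its phosphate back to ADP at the myofibrils. Adenylate kinase joins ADP pairs into ATP and AMP. The AMP is deaminated to IMP by AMP deaminase, and adenylosuccinate synthetase and adenylosuccinate lyase rebuild AMP from IMP and aspartate with release of fumarate, which closes the purine nucleotide cycle. Fast white fibres such as those of chicken breast are known for rich stores of phosphocreatine and for strong activity of this cycle.

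The comparison asks which of these genes differ in expression between breast muscle of the native breed and of the broiler. A pair of opposite differences passed the authors' test: the creatine synthesis gene GATM was 2.08-fold higher in Ross 708, and the purine cycle gene ADSSL1 was 2.69-fold higher in Isfahani. The remaining 6 members did not pass, among them CKB, whose fold was larger than that of GATM. A gene is called here when its q-value, a p-value adjusted for the number of rows tested, is at or under 0.05 in the authors' deposited table. By that rule 2 of 8 members were called, 1 in each direction. Of all tested rows 5.21% were called, 3.07% towards Ross 708 and 2.14% towards Isfahani. Ratios below are log2((Ross 708 FPKM + 1)/(Isfahani FPKM + 1)), so that positive values are higher in Ross 708. The median ratio of the 8 members was -0.13, with 4 genes above 0 and 4 below, and that of all 11626 tested rows was -0.03. The median of tested rows varied with level, from -0.18 at a mean of 30 to 100 FPKM to -0.004 above 1000 FPKM.

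**Figure D1:**
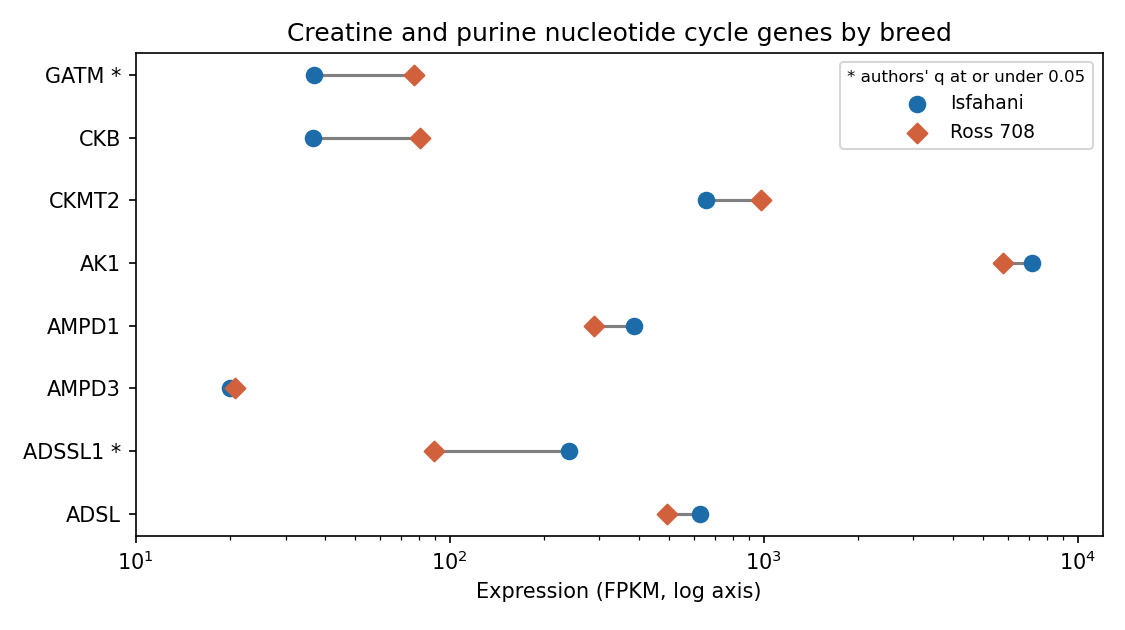
Expression of the 8 genes in FPKM on a log axis, 1 value per breed (circles Isfahani, diamonds Ross 708), in the order creatine synthesis, creatine kinases, adenylate kinase, AMP deaminases, adenylosuccinate synthetase and lyase. The widest gap is that of ADSSL1 (239 and 89.0 FPKM), GATM and CKB lie close together in both breeds, and the marks of AMPD3 nearly coincide.

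By level, the genes spanned from 20.03 to 7146 FPKM in Isfahani and from 20.7 to 5802 FPKM in Ross 708. AK1 ranked 3 among all tested rows by the mean of both breeds, CKMT2 ranked 130, ADSL 163, AMPD1 228, ADSSL1 427, CKB 1131, GATM 1161 and AMPD3 2783. Rows marked HIDATA, which carry no valid estimate, have no rank here. Among them, TNNI2, TNNT3 and TNNC2 were listed at 13272, 11956 and 11510.5 FPKM in Ross 708, above AK1, and at 0 in Isfahani. In Isfahani the order of the members from high to low was AK1, CKMT2, ADSL, AMPD1, ADSSL1, GATM, CKB and AMPD3. In Ross 708 the order was the same down to ADSSL1, and CKB then stood above GATM. Without a value per library it cannot be said which neighbours in these orders differ beyond their spread; GATM and CKB were the closest pair in Isfahani, at 37.1 and 36.7 FPKM.

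Creatine synthesis starts with GATM, the mitochondrial amidinotransferase that makes guanidinoacetate from arginine and glycine (galGal5, chromosome 10, 10400534 to 10433352). GATM stood at 37.1 FPKM in Isfahani and 77.1 FPKM in Ross 708, a log2 ratio of 1.04. It was called higher in Ross 708, with p = 0.00015 and q = 0.00612 in the authors' deposited table. Among the 1386 tested rows with a mean of 30 to 100 FPKM, the median log2 ratio was -0.18, and 34 rows, GATM included, were at least as far in its direction. No other row overlapped its locus.

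The second step, the methylation of guanidinoacetate to creatine, belongs to GAMT. Its symbol occurred in a row shared with the identifier ENSGALG00000021884, over a locus on chromosome 28 (3068141 to 3209384) that 14 other rows overlapped. That row stood at 206 FPKM in Isfahani and 154 FPKM in Ross 708, a log2 ratio of -0.42, with q = 0.878 in the authors' deposited table. How much of it is GAMT cannot be told apart from its partner, and the row is not counted among the members.

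The creatine kinases move phosphate between ATP and creatine. CKB, the brain-type cytosolic enzyme, which is also known from embryonic muscle and smooth muscle (chromosome 5, 50128408 to 50230400), measured 36.7 FPKM in Isfahani and 80.5 FPKM in Ross 708, a 2.19-fold difference and a log2 ratio of 1.11. It missed the threshold, with p = 0.0111 and q = 0.128 in the authors' deposited table. The authors' test statistic, given in their deposited table, was 1.86 for CKB and 2.66 for GATM, although both genes had nearly the same levels. The locus of CKB overlaps the row of MARK3, a kinase gene, so the value of CKB is less certain. Of the 27 tested rows between 30 and 100 FPKM with a ratio at least as high as that of CKB, 21 were called and 6, CKB among them, were not.

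CKMT2 encodes the sarcomeric creatine kinase of the mitochondrial intermembrane space (chromosome Z, 63574949 to 63599597). It stood at 656 FPKM in Isfahani and 979 FPKM in Ross 708, a log2 ratio of 0.58 that missed the threshold (q = 0.325 in the authors' deposited table). The median log2 ratio was -0.05 both for the 518 Z-linked tested rows with at least 1 FPKM in each breed and for all 10020 such rows. CKMT1A, the ubiquitous mitochondrial isozyme, reached 0.685 and 1.43 FPKM, a difference that was not called (q of 0.466 in the authors' deposited table). Of the summed FPKM of these 3 kinase genes, 692.9 in Isfahani and 1060.5 in Ross 708, CKMT2 held 94.6% and 92.3%, and CKB 5.30% and 7.59%. CKM, which matched no row, is missing from this sum, so these are not shares of all creatine kinase RNA. All 3 kinases analysed had the higher value in Ross 708; none was called by the authors' Cufflinks test, and CKB alone had an unadjusted p under 0.05 in the authors' deposited table.

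Adenylate kinase 1, encoded by AK1 (chromosome 17, 4876169 to 4880804), is the cytosolic enzyme of muscle that regenerates ATP from ADP. It stood at 7146 FPKM in Isfahani and 5802 FPKM in Ross 708, a log2 ratio of -0.30 that was not called (q of 0.768 in the authors' deposited table). Among the 109 tested rows with a mean above 1000 FPKM, 1 was called in each direction, and 16, AK1 included, were at least as far towards Isfahani. AK1 held 98.9% of the summed FPKM of AK1, AK3, AK4 and AK6 in Isfahani and 99.1% in Ross 708.

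Of 3 further adenylate kinase genes described here, each was far lower. AK3, the matrix enzyme that works with GTP, stood at 66.7 and 40.9 FPKM (Isfahani first, here and below). AK6, a nuclear enzyme whose locus overlaps RAD17, stood at 12.8 and 8.33 FPKM, and the mitochondrial AK4, which overlaps an unnamed row, at 3.18 and 4.25 FPKM. None of the 3 was called by the authors' Cufflinks test (AK3 alone had an unadjusted p under 0.05), with q-values from 0.150 for AK3 to 0.597 for AK4 in the authors' deposited table.

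AMP deaminase opens the purine nucleotide cycle by turning AMP into IMP and ammonia. AMPD1, the muscle isoform (chromosome 26, 3833686 to 3843675), measured 386 FPKM in Isfahani and 288 FPKM in Ross 708, a log2 ratio of -0.42 that was not called (q of 0.507 in the authors' deposited table). AMPD3, known as the erythrocyte isoform (chromosome 5, 8358383 to 8387686), measured 20.03 and 20.7 FPKM, a log2 ratio of 0.04 that turned to -0.08 when both breeds were rescaled to the same sum of FPKM (q = 0.970 in the authors' deposited table). AMPD1 was thus 19.3 times as abundant as AMPD3 in Isfahani and 13.9 times in Ross 708. Of 12 erythroid marker symbols 7 had a row, and HBAA, HBAD and HBG1 were listed at 0 in both breeds. The rows of HBAA and HBAD lie on a sequence not assigned to a chromosome. Their values of 0 therefore cannot show whether blood RNA was present. HBG1 lies on chromosome 1, while the globin symbols HBA1 and HBBA of the list matched no row. The untested rows of HBE, RHAG and EPB42 stood at 0.00882 and 0.0817, 0.124 and 0.133, and 0.174 and 0.109 FPKM. The part of blood RNA in the member values was not tested. SPTB, which muscle also expresses, alone was tested, at 32.3 and 24.2 FPKM.

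Adenylosuccinate synthetase joins IMP to aspartate. Its muscle isozyme is ADSSL1, also called ADSS1 (chromosome 5, 51448055 to 51474312), which measured 239 FPKM in Isfahani and 89.0 FPKM in Ross 708, a log2 ratio of -1.42. It was called higher in Isfahani, with p = 5e-05 and q = 0.00245, the smallest values in the authors' deposited table, which 237 tested rows shared. Of 429 tested rows with a mean of 100 to 300 FPKM, 8, ADSSL1 included, were at least as far in this direction and all 8 were called; the median of the 429 was -0.18. One row, ENSGALG00000023027, overlaps the locus of ADSSL1.

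ADSS, the isozyme found in most tissues, measured 22.3 and 17.5 FPKM, and its log2 ratio of -0.33 did not reach the threshold (q = 0.579 in the authors' deposited table). Together the synthetase genes summed to 261.4 FPKM in Isfahani and 106.5 FPKM in Ross 708. ADSSL1 made up 91.5% of that sum in Isfahani and 83.6% in Ross 708, and the share of ADSS was 8.53% and 16.4%.

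Adenylosuccinate lyase, ADSL, splits adenylosuccinate into AMP and fumarate and also acts in new purine synthesis (chromosome 1, 49948589 to 49964213). It stood at 628 FPKM in Isfahani and 492 FPKM in Ross 708, a log2 ratio of -0.35 that was not called (q of 0.612 in the authors' deposited table). The 3 enzymes of the cycle in their muscle forms, AMPD1, ADSSL1 and ADSL, were all lower in Ross 708 in value, and ADSSL1 alone was called. Of 139 tested rows with a mean of 300 to 1000 FPKM, 40, ADSL included, were at least as far towards Isfahani as ADSL. In the same band 29 of the 139, AMPD1 included, were at least as far towards Isfahani as AMPD1.

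**Figure D2:**
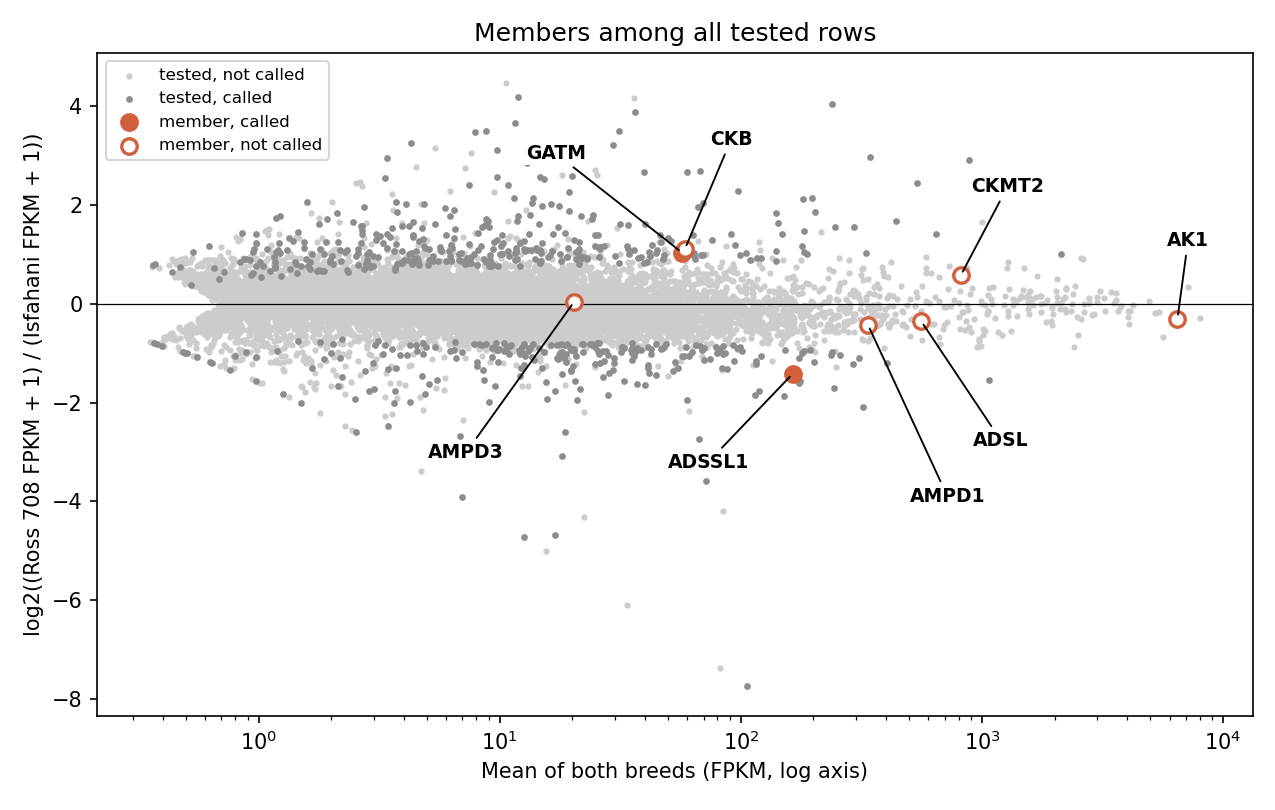
The log2 ratio of Ross 708 over Isfahani (FPKM + 1) against the mean FPKM of both breeds for all 11626 tested rows (grey, darker where called) and the 8 members (orange circles, filled where called). GATM (1.04) and CKB (1.11) lie side by side with 1 of them called, and ADSSL1 (-1.42) lies among the lowest rows of its level.

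Ratios between genes within a breed do not depend on how libraries were scaled. The level of ADSSL1 relative to ADSL was 0.381 in Isfahani and 0.181 in Ross 708, a 2.10-fold difference. Relative to AMPD1 it was 0.620 and 0.309, a 2.00-fold difference. ADSL relative to AMPD1 was 1.63 and 1.71, a 1.05-fold difference, while ADSSL1 stood lower against each of the pair in Ross 708. GATM relative to CKMT2 was 0.0566 and 0.0788, and GATM relative to CKB was 1.01 and 0.958. With 1 value per breed these differences in proportion could not be tested.

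**Figure D3:**
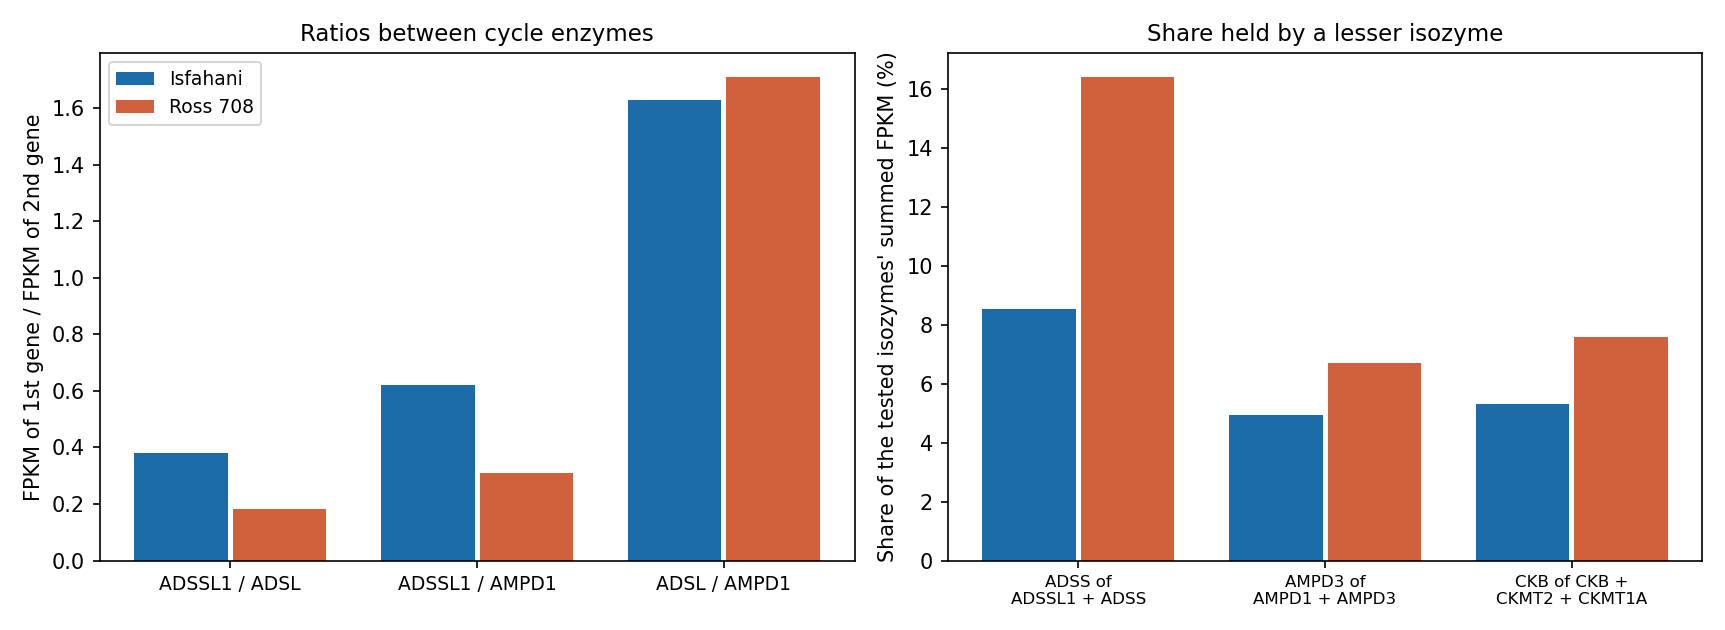
Left, FPKM of one purine cycle enzyme gene divided by that of another, by breed; right, the share of the summed FPKM of the tested isozymes held by a lesser isozyme, in percent (blue Isfahani, orange Ross 708, 1 value each). ADSSL1 against ADSL and against AMPD1 is lower in Ross 708, ADSL against AMPD1 is 1.63 and 1.71, and the share of ADSS is 8.53% and 16.4%. CKM, which matched no row, is missing from the creatine kinase sum.

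In the authors' deposited table of enriched terms for genes higher in the native breed, ADSSL1 was listed in 22 of 254 terms and in 7 of the 15 with a Benjamini-adjusted p at or under 0.05. The fewest genes among those 7 terms, 16, were in response to nutrient levels (3.45-fold enrichment, adjusted p of 0.0294 in the authors' deposited table) and in response to extracellular stimulus (3.23-fold, adjusted p of 0.0422 in the authors' deposited table). Both terms list the same 16 genes. The rest of the 7 were broad metabolic terms of 52 to 134 genes, with 1.2-fold to 1.66-fold enrichment. Response to starvation held 9 genes including ADSSL1, all of them among those 16, with an adjusted p of 0.0555 in the authors' deposited table. Nucleotide metabolic process held 12, with an adjusted p of 0.743 in the authors' deposited table. The 2 other sheets are headed Down and Ross; their gene names that matched a called row, 269 and 84 of them, were all higher in Ross 708. GATM, called in that direction, appeared in no term of these 2 sheets. The other 6 members appeared in no term of any of the 3 sheets.

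Genes around the members were grouped into 6 lists covering 107 symbols, of which 89 had a row and 81 were tested. Of those 81, 7 were called, 5 towards Ross 708 and 2 towards Isfahani, which is 8.64% beside 5.21% of all tested rows, and their median log2 ratio was -0.07. The 7 called genes were spread over 4 of the 6 lists, and at most 2 of any list were called.

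Creatine supply draws on arginine, glycine and methyl groups. Of 19 tested genes of this list, 2 were called, both towards Ross 708, and 17 were not; 7 had the higher value in Ross 708 and 12 in Isfahani, and the median log2 ratio was -0.08. MAT1A, which makes the methyl donor S-adenosylmethionine, stood at 15.2 and 27.3 FPKM (q = 0.0363 in the authors' deposited table). SLC7A1, a carrier of arginine and other cationic amino acids, stood at 0.505 and 2.58 FPKM (q = 0.00245 in the authors' deposited table). The most abundant tested genes of the list were OAT, ornithine aminotransferase, at 132 and 106 FPKM, and DLD, a subunit of the glycine cleavage system, at 96.6 and 76.7 FPKM, neither called; the locus of DLD overlaps 3 other rows. SLC6A8, the creatine transporter, matched no row and is not analysed here.

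New synthesis of purines ends in IMP, the substrate of ADSSL1. Of 10 tested genes, 1 was called, towards Ross 708, while 4 had the higher value in Ross 708 and 6 in Isfahani; the median log2 ratio was -0.12. The called gene was ATIC, which carries out the last steps to IMP, at 28.4 and 51.3 FPKM (q = 0.0408 in the authors' deposited table). PRPS1, which makes the ribose phosphate precursor, stood at 183 and 141 FPKM, and IMPDH2, which diverts IMP to guanine nucleotides, at 135 and 129 FPKM, neither called.

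Of 14 tested genes of purine salvage and interconversion none was called by the authors' Cufflinks test. An unadjusted p under 0.05 held for 2 of them, NME6 and SLC29A1. The median log2 ratio of the 14 was 0.08. It turned to -0.04 on rescaling to the same sum of FPKM, HIDATA rows included, and was 0.13 on rescaling without them. NME2, a nucleoside diphosphate kinase, stood at 808 and 1014 FPKM and SLC29A1, a nucleoside transporter, at 80.3 and 54.9 FPKM. Of 16 tested genes of purine nucleotide breakdown, 1 was called towards Ross 708 and 1 towards Isfahani. The higher value was in Ross 708 for 10 genes and in Isfahani for 6. Their median log2 ratio was 0.10, -0.02 on rescaling with the HIDATA rows and 0.15 on rescaling without them. ENTPD2, an enzyme that splits extracellular ATP, stood at 10.2 and 22.7 FPKM (q = 0.00440 in the authors' deposited table). ENTPD5, a nucleotidase of the endoplasmic reticulum, stood at 8.45 and 4.56 FPKM (q = 0.0429 in the authors' deposited table). The most abundant tested genes of the list, the nucleotidases NT5C3A, which favours pyrimidines (142 and 106 FPKM) and NT5C2 (20.7 and 22.4 FPKM), were not called.

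Aspartate enters the cycle at ADSSL1 and fumarate leaves it at ADSL. Of 11 tested genes that handle aspartate, fumarate and their amino groups, 1 was called towards Ross 708 and 1 towards Isfahani. The higher value was in Ross 708 for 3 genes and in Isfahani for 8, and the median log2 ratio was -0.26. ASNS, asparagine synthetase, which consumes aspartate, stood at 4.93 and 54.1 FPKM, and GLUL, glutamine synthetase, which binds ammonia, at 47.4 and 23.4 FPKM (q = 0.00245 and 0.00917 in the authors' deposited table). MDH1, cytosolic malate dehydrogenase (202 and 199 FPKM), and GOT2, the mitochondrial aspartate aminotransferase (200.3 and 187 FPKM), were not called.

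**Figure D4:**
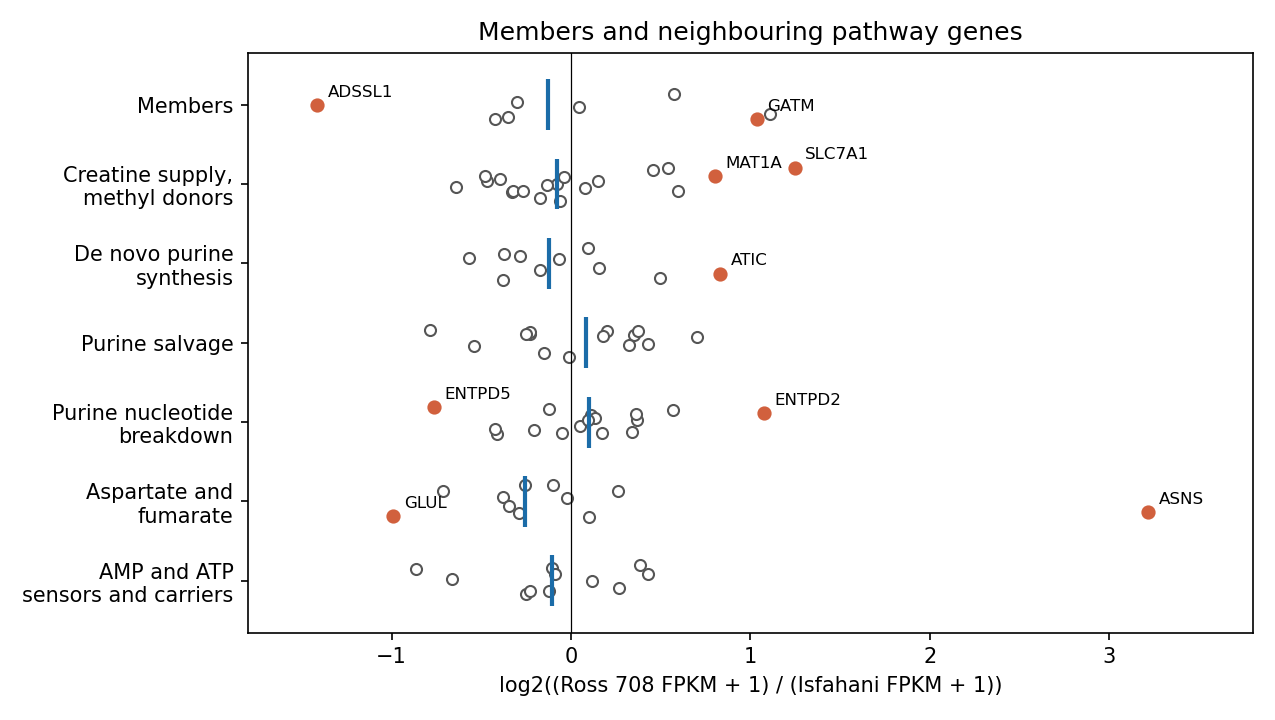
The log2 ratio of Ross 708 over Isfahani (FPKM + 1) for each tested member and each tested gene of 6 neighbouring lists, filled and named where called; blue bars are medians, and the vertical scatter within a list has no meaning. Called genes of the 6 lists lie at the ends of their lists, and CKB lies beyond the called GATM among the members. The medians run from -0.26 for aspartate and fumarate genes to 0.10 for purine nucleotide breakdown. The latter turned to -0.02 on rescaling to the same sum of FPKM, HIDATA rows included, and was 0.15 without them.

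Markers of other cell types and fibre types were measured in the same pools. Fewer cells of a type and less RNA per cell cannot be told apart in bulk muscle. Of 6 adipocyte markers, 4 were called, all with more in Ross 708, and their summed level was 111.3 FPKM in Isfahani and 412 FPKM in Ross 708. Of 5 tested slow fibre markers, 3 (TNNI1, MYOZ2 and ATP2A2) were called, with more in Ross 708. MYH7B went the other way, at 2.92 and 0.663 FPKM. It was not called but had an unadjusted p under 0.05 by the authors' Cufflinks test. The slow fibre sum of 2877 and 3193 FPKM is nearly all TNNC1, at 2862 and 3156 FPKM and not called. Without TNNC1 the other 4 summed to 14.8 and 37.4 FPKM. Of 4 smooth muscle markers, ACTA2 was called, at 10.5 and 21.3 FPKM. The smooth muscle sum of 1995 and 1958 FPKM is nearly all DES, which skeletal muscle also expresses. Without DES the other 3, all with the higher value in Ross 708, summed to 24.0 and 40.3 FPKM.

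Of 8 leukocyte markers, 1 was called and 7 had the higher value in Ross 708. Their sum of 2328 and 3029 FPKM is mostly CD74, whose locus overlaps 14 other rows, and without it the sum was 190.4 and 295.4 FPKM. Fibroblast markers summed to 1727 and 2817 FPKM (1 of 5 called). COL1A1, whose row covers 0.4 kb not assigned to a chromosome, was not tested and was listed at 0 in both breeds. By the authors' Cufflinks test no endothelial marker of 5 (33.3 and 45.2 FPKM, 1 with an unadjusted p under 0.05) and no nerve marker of 3 (106.4 and 93.7 FPKM, 0 with an unadjusted p under 0.05) was called. Of 11 skeletal muscle markers measured, 5 (ACTA1, TNNC2, TNNI2, TNNT3 and MYL1) carried no valid estimate. Of the 6 tested, with sums of 790.7 and 754.8 FPKM, 3 were called in opposite directions: the myosin genes MYH1A (80.04 and 154 FPKM) and MYH1D (10.3 and 38.4 FPKM) towards Ross 708, and the myogenic factor MYOD1 (238 and 110.4 FPKM) towards Isfahani. The part of these cell types in the values of GATM, CKB and ADSSL1 was not tested.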

How the data were processed

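Breast muscle RNA of 2 breeds, 2 pools of 3 birds each, was sequenced as paired reads of 150 bases, per the labels. The submitters' processing notes name Cufflinks 2.2.1, HISAT2, Trimmomatic and FastQC 0.11.5, and the build galGal5; the annotation, library scaling, strand setting and dispersion model were not given in the sources used here. Columns of the deposited table hold the authors' FPKM, 1 value per breed headed Native (taken as Isfahani) and Commercial (taken as Ross 708), and the authors' log2 fold change, test statistic (a score), p-value and q-value, per the file headers. Of 18973 rows, 11626 were tested, 7307 were untested for low signal, 39 were marked HIDATA (all listed at 0 in Isfahani) and 1 failed. The deposited enrichment sheets give gene counts, the percent of the list, fold enrichment as a ratio and p-values, per the file headers.

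With 1 value per breed, limma, planned for values per library, gave way to the authors' q-values, which a Benjamini-Hochberg adjustment of their p-values over tested rows matched to within 5.22e-07. P-values measure at most the spread between these pools, which may be technical, and depth is unknown. Ratios used a pseudocount of 1 FPKM, which understates the change of low genes. Of 32 named genes, 5 overlap another row and are less certain. Loci are printed as deposited.

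The members and lists were chosen with earlier results of these data known. Named genes were all members, tested isozymes of members and, of each of 6 context lists, every called gene and the 2 most abundant tested genes; NME6, MYH7B and the cell type markers (9 lists) were named beside them, and 1 gene is not reported here. A symbol on several rows took the row with the highest mean FPKM. Other settings were pseudocounts of 0.1 and 0, rescaling to a common sum with and without HIDATA rows, centring on the median, q-value thresholds of 0.01 and 0.10, a 2-fold minimum and a filter of 1 FPKM in both breeds. Python 3.11.15, pandas 2.3.3 and numpy 2.4.6 were used, and the adjustment step was tested on simulated data.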

Additional observations from a re-analysis of the deposited data

How the results depend on the processing

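Counts of called members (1 in each direction) held under q-value thresholds of 0.01 and 0.10, a 2-fold minimum and adjustment over rows with 1 FPKM in both breeds. Of 40 alternatives that changed the 8 member ratios (pseudocount, scaling or centring), 39 kept the direction; these leave the authors' q-values as they are and say nothing of the calls. AMPD3 turned to -0.083 when breeds were rescaled to a common sum over all rows. Ratios ran from 0.91 to 1.09 for GATM, 0.98 to 1.16 for CKB and -1.55 to -1.37 for ADSSL1. That rescaling moved the median of tested rows with 1 FPKM in both breeds by -0.11, and list medians to -0.20 (creatine supply), -0.24 (new purine synthesis), -0.035 (salvage), -0.020 (breakdown), -0.39 (aspartate and fumarate) and -0.23 (sensors and carriers); all 39 HIDATA rows in that sum are listed at 0 in Isfahani. Rescaling without those rows gave 0.13 for salvage, 0.15 for breakdown and 0.09 for AMPD3. At a q-value threshold of 0.01, calls higher in Ross 708 fell to 1 for creatine supply and 0 for new purine synthesis, and calls higher in Isfahani to 0 for breakdown. Requiring 1 FPKM in both breeds left 1 creatine supply call, since SLC7A1 was under 1 FPKM in Isfahani. No member had a second row to try. No paired analysis was possible because the table gives 1 value per breed, and leaving out a pool was not run for the same reason. Depth limits cannot be stated without counts.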

Other observations

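Genes that sense AMP or carry ATP and ADP across the mitochondrial membranes were examined as a further list beside the creatine and purine genes. Of 11 tested, none was called by the authors' Cufflinks test, and 1 (SLC25A4) had an unadjusted p under 0.05. The median log2 ratio was -0.10, beside -0.03 over all tested rows. By level, the median of tested rows was -0.12 at a mean of 10 to 30 FPKM and -0.18 at 30 to 100 FPKM. It was -0.18 at 100 to 300 FPKM and -0.05 at 300 to 1000 FPKM. SLC25A4, the ADP/ATP carrier of muscle mitochondria, stood at 3116 FPKM in Isfahani and 1711 FPKM in Ross 708, a log2 ratio of -0.86 with p = 0.0134 and q = 0.142 in the authors' deposited table. VDAC2, a pore of the outer mitochondrial membrane, stood at 616 and 389 FPKM (q = 0.343 in the authors' deposited table). CKMT2, whose product sits between the inner and outer membrane, stood at 656 and 979 FPKM and did not pass the test either.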
